A study of Mus musculus with 60 samples.

Results

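Livers of 5 female mice after 20 weeks on HF/HS, a feed high in fat and in sucrose, were compared with livers of 5 female mice after 60 weeks on the control diet. These are 10 of the 60 libraries of the study. The members are defined by their labels: sex, diet and weeks on study. The choice of this comparison was made with earlier results of these data known. All mice were of CC042/GeniUnc, an inbred strain of the Collaborative Cross panel, and 12 groups of 5 combined both sexes, both diets and 20, 40 or 60 weeks. The fat of the HF/HS diet came from milk, and the diet contained cholesterol, and the control diet was matched in ingredients with less fat and less sucrose. Total RNA of flash-frozen liver was sequenced after removal of ribosomal RNA, so each library averages over all cell types of the tissue. The question is which genes separate an early response to the HF/HS diet from long life on the control diet. Diet and weeks on study differ together between the groups and cannot be told apart from these 10 libraries. The age at the start of feeding is not stated in the labels.

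The liver makes cholesterol through the mevalonate pathway, whose enzymes are under the transcription factor SREBP-2 and are repressed when sterols are plentiful. It converts cholesterol to bile acids, stores and burns fatty acids, makes glucose between meals, and clears foreign compounds with cytochrome P450 enzymes, several of which differ between males and females under the control of growth hormone. Many of these programs also follow the time of day through the circadian clock. In a bulk sample, fewer cells of a type and less RNA per cell cannot be told apart.

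The 10 libraries held 11868172 to 16904184 counts each. Levels are given in CPM, the count relative to the library's total scaled by the TMM factor of edgeR. Values follow the HF/HS animals in the order 292, 301, 302, 421 and 422 and the controls in the order 31, 32, 42, 191 and 192. Control animal 31 stood apart. Its mean correlation with the rest of its group was 0.968, against 0.981 to 0.984 for the other controls and 0.983 to 0.986 for the HF/HS animals. The summed level of 22 acute phase genes was 54298 CPM in animal 31, 21720 to 28216 CPM in the other controls and 17880 to 20471 CPM in the HF/HS animals. Pancreas genes summed to 73.6 CPM in HF/HS animal 421 and 184 CPM in animal 422, against 7.81 to 12.5 CPM in the other HF/HS animals and 4.08 to 27.7 CPM in the controls. Leaving out animal 31 lowered the number of genes called from 2374 to 1426, and leaving out animals 31, 421 and 422 together, an alternative chosen after seeing the data, gave 1455. Leaving out HF/HS animal 292 gave 1582. The liver label was checked with 15 hepatocyte markers, all of which were tested, and Hnf4a, a transcription factor of hepatocytes, stood at 909 to 1176 CPM in HF/HS animals and 1187 to 1502 CPM in controls.

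In the livers of the HF/HS animals at 20 weeks, many genes of cholesterol synthesis and amino acid breakdown and some of gluconeogenesis were lower than in the 60-week controls, and many cell cycle genes were higher. The cytochrome P450 genes Cyp3a11 and Cyp4a12b were many times higher. Clock genes moved in both directions, and several immediate early genes were lower. In edgeR's quasi-likelihood test, 2374 of 14180 genes (16.7%) passed an adjusted p (Benjamini-Hochberg) of 0.05, here "called", with 1028 higher (7.25%) and 1346 lower (9.49%) in the HF/HS animals. At least 2-fold differences were found for 176 of the higher genes (1.24% of all tested) and 227 of the lower genes (1.6%). The median absolute log2 fold change was 0.405 over called genes and 0.166 over all genes tested, and the CPM ranges of the groups were apart for 1160 genes (8.18%), of which 963 were called (6.79% of all tested). The words called and passed refer to this fit of all 60 libraries with edgeR unless another is named. The fit of the 10 libraries alone called 717 genes in all and that with the clock covariate described below 1394, and many list counts were lower in both. The clock covariate is made from genes that partly differ between these groups. It can therefore take up group difference, and a call lost with it decides nothing about time of day. Another covariate, the animal number range, sorted libraries by the number that opens each label into low, middle and high classes. All controls here were in the low class and no HF/HS animal was. In these 10 libraries it cannot be separated from the groups. The fit of all 60 libraries took the class effect from groups whose libraries fall in different classes. A call lost with it therefore rests on that effect being the same in all groups, which was not tested. Log2 fold changes below are HF/HS 20 weeks minus control 60 weeks, given with ± the standard error of the fit.

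**Figure D1:**
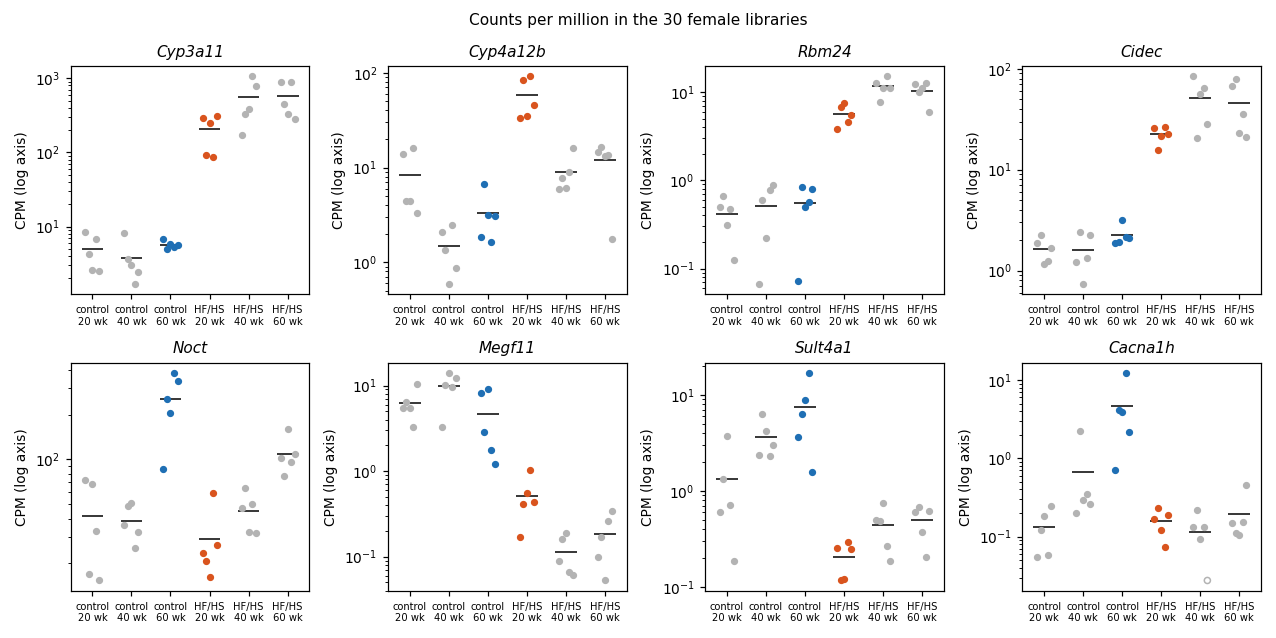
CPM on a log axis for 8 genes with large differences in the 30 female libraries (points) and the group means (bars), with HF/HS 20 weeks in orange, control 60 weeks in blue and an open point for a library without a count. The orange points of Cyp3a11 (86.8 to 306 CPM) lie above all blue points (5.03 to 6.73 CPM), and those of Noct (16.2 to 59.1 CPM) lie below (85.8 to 382 CPM).

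Cyp3a11 (chromosome 5, 145854426 to 145879964, mm10), a cytochrome P450 that oxidizes drugs and steroids, stood at 290.1, 90.8, 250.1, 86.8 and 306 CPM in HF/HS animals and 6.73, 5.03, 5.74, 5.29 and 5.61 CPM in controls. All HF/HS animals were above all controls, and the level was 36-fold higher (5.17 ± 0.54, adjusted p = 2.2e-09). Control females at 20 weeks stood at 2.54 to 8.55 CPM, and the 60-week controls lay within that range. Cyp4a12b (chromosome 4, 115411624 to 115439034), a fatty acid hydroxylase typical of male liver, stood at 33.3, 83.5, 34.8, 91.9 and 46.2 CPM in HF/HS animals and 1.86, 6.73, 3.16, 1.65 and 3.07 CPM in controls. It was 17.2-fold higher with ranges apart (4.11 ± 0.39, adjusted p = 1e-10), and its neighbour Cyp4a12a rose as well (2.63 ± 0.45, adjusted p = 0.00011). Cyp4a12b was also lower in control females at 60 than at 20 weeks (-1.33 ± 0.40, adjusted p = 0.0096). Both P450 families hold near-identical copies that can share reads, so the split among their members is uncertain.

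Cidec, which coats lipid droplets and drives their fusion, stood at 26.1, 15.6, 21.4, 26.7 and 22.5 CPM in HF/HS animals and 1.86, 1.94, 3.16, 2.15 and 2.1 CPM in controls. The groups were apart and the level 9.97-fold higher (3.32 ± 0.66, adjusted p = 0.00053). Rbm24, an RNA-binding protein known from muscle, showed 3.79, 6.7, 7.5, 4.58 and 5.46 CPM in HF/HS animals and 0.0716, 0.848, 0.502, 0.572 and 0.789 CPM in controls, again without overlap (3.32 ± 0.58, adjusted p = 0.00014). Fam83a (2.36 ± 0.50, adjusted p = 0.00095) and Themis (2.29 ± 0.64, adjusted p = 0.011), a T cell signalling protein, followed at lower levels. For these 4 genes the difference between diets at 20 weeks, which uses the same HF/HS libraries, was 3.76 ± 0.67 (Cidec), 3.73 ± 0.59 (Rbm24), 3.07 ± 0.52 (Fam83a) and 2.64 ± 0.64 (Themis). The difference between control 60 and 20 weeks, which uses the same control libraries, was 0.44 ± 0.82, 0.41 ± 0.79, 0.70 ± 0.64 and 0.35 ± 0.85, and none of these 4 values passed. By construction the comparison described here is the first of these differences minus the second, so they are set side by side and are not independent of it. Over all genes, 9.53% were higher and 10.7% lower between diets at 20 weeks, and 13.8% were higher and 13.4% lower between control 60 and 20 weeks. Themis was not called with the clock covariate (adjusted p = 0.052), with the animal number range as a covariate (0.073) or by limma voom (0.13).

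On the lower side, Noct (chromosome 3, 51224447 to 51251644), which encodes the rhythmic protein nocturnin, stood at 23.4, 20.6, 16.2, 59.1 and 26.7 CPM in HF/HS animals and 85.8, 255, 204, 382 and 339 CPM in controls. It was 8.69-fold lower with ranges apart (-3.12 ± 0.42, adjusted p = 1.7e-06). Between control 60 and 20 weeks Noct differed by 2.61 ± 0.41, adjusted p = 6.4e-06, and between diets at 20 weeks it did not pass (-0.51 ± 0.40, adjusted p = 0.4). Cacna1h, a T-type calcium channel subunit, had the same order, with 0.0727 to 0.233 CPM in HF/HS animals and 0.716 to 12.3 CPM in controls (-4.81 ± 0.59, adjusted p = 2.8e-07), 5.06 ± 0.60 between control durations and 0.26 ± 0.85 between diets at 20 weeks. Without control animal 191, which stood at 12.3 CPM, its difference was -4.05 and passed. Megf11, a receptor with epidermal growth factor repeats, showed the other order: 0.168, 0.408, 0.549, 1.02 and 0.439 CPM in HF/HS animals and 8.24, 2.85, 9.11, 1.79 and 1.23 CPM in controls (-3.15 ± 0.49, adjusted p = 2.2e-05), with -3.56 ± 0.49 between diets at 20 weeks and -0.42 ± 0.40 between control durations. Sult4a1, a cytosolic sulfotransferase, at 0.117 to 0.291 CPM in HF/HS animals and 1.58 to 16.9 CPM in controls (-5.16 ± 0.62, adjusted p = 1.6e-07), and Pcdh20, a protocadherin, at 0 to 0.364 CPM in HF/HS animals and 1 to 23.1 CPM in controls (-6.05 ± 0.83, adjusted p = 2e-06), were low in all 5 HF/HS animals. The steepest fitted drops belonged to genes carried by animal 31. A2m, a protease inhibitor of the acute phase, stood at 0.253, 0.233, 0.183, 0.436 and 0.188 CPM in HF/HS animals and 1939, 19.6, 3.52, 1.22 and 1.23 CPM in controls (-10.55 ± 1.90, adjusted p = 0.00019), and without animal 31 its difference was -4.65 with adjusted p = 0.050. Gldn, at 0, 0.117, 0, 0.0727 and 0.188 CPM in HF/HS animals and 39.1, 0.424, 0.646, 2.07 and 0.701 CPM in controls (-6.62 ± 1.22, adjusted p = 0.00024), was -3.47 without animal 31 with adjusted p = 0.048. Gldn was not called by limma voom or without animals 31, 421 and 422 (both adjusted p = 0.079), and A2m was not called in either (0.098 and 0.12) or with the clock covariate (0.088). Plekhd1 (-4.17 ± 0.91, adjusted p = 0.0014) was -3.27 without animal 31 and -4.76 without HF/HS animal 422, passed both times, and was not called with the clock covariate (adjusted p = 0.11).

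**Figure D2:**
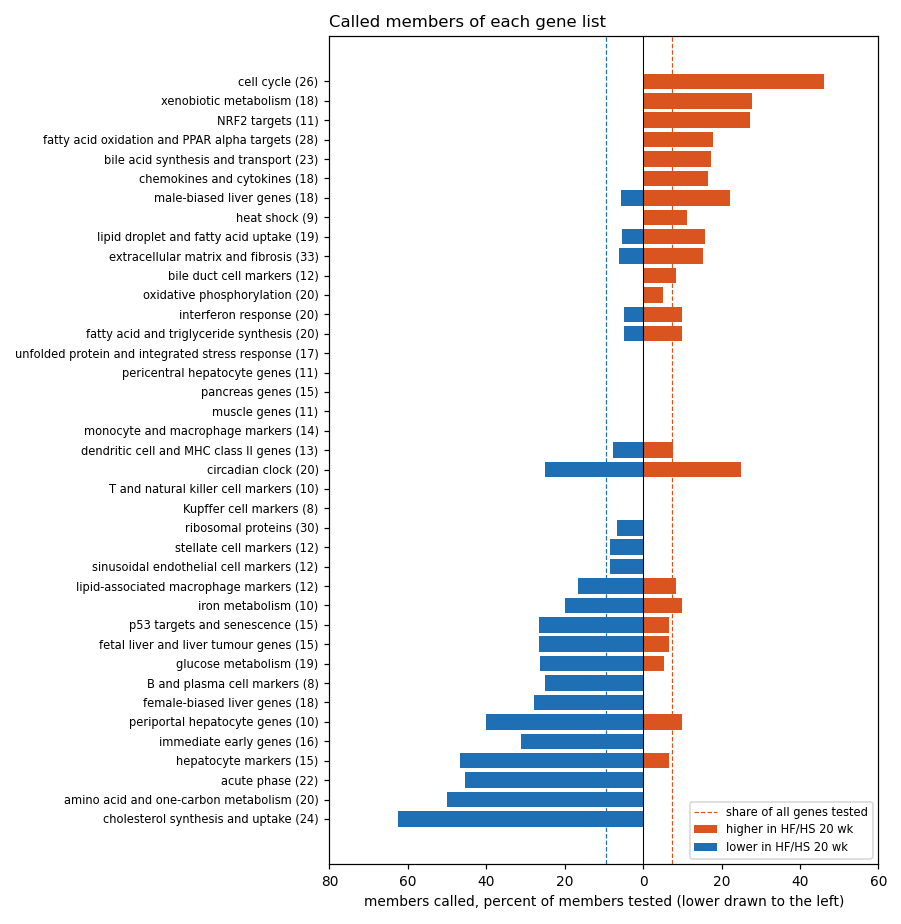
Percent of tested members called higher (orange, right) and lower (blue, left) in HF/HS 20 weeks for the gene lists with at least 8 tested members, whose number stands in brackets; dashed lines mark the shares over all 14180 genes (7.25% and 9.49%). Cholesterol synthesis (15 of 24 lower) and cell cycle (12 of 26 higher) lie at the ends.

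Cholesterol synthesis was the list with the largest share of called members among those drawn. Of 24 tested genes of synthesis and uptake 15 were lower and none was higher, against 9.49% lower over all genes. The list's median log2 fold change was -0.62, against -0.00022 over all genes. Summed over the list, the HF/HS animals held 3861, 3736, 2807, 4604 and 3662 CPM and the controls 5310.2, 4694, 4674, 5822 and 4965 CPM. The sums did not overlap, and HF/HS animal 302 was the lowest.

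Promoters of called members are shown because the list moved in 1 direction. RefSeq promoter entries (GRCm38.p6) were matched for 16 of the 24 tested members. The first listed entry of each gene was used. The sterol regulatory motif TCACNCCAC, searched on both strands in the 250 bases before the gene start, was in 1 of the 16 (6.25%), a member that was not called. It was in 1.04% of all 27025 genes with an entry. The CCAAT box, which binds NF-Y, was in 15 of the 16 (93.8%), among them 9 of the 10 called members with an entry. Of all genes with an entry 34.5% held it. The 3 called members with the largest change that hold CCAAT were chosen for print after the first motif was found in no called member. Capitals mark CCAAT or its reverse complement ATTGG. Idi1 (chr13:8885356-8885605, plus strand) is the isomerase that makes the active isoprene unit. Cyp51 (chr5:4104698-4104947, minus strand) is the lanosterol demethylase. Lss (chr10:76531355-76531604, plus strand) closes the sterol ring.
Idi1: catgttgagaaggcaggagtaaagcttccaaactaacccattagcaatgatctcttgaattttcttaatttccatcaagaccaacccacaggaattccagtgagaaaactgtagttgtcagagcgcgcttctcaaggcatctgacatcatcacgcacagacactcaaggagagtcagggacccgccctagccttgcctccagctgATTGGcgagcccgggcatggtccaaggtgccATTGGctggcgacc
Cyp51: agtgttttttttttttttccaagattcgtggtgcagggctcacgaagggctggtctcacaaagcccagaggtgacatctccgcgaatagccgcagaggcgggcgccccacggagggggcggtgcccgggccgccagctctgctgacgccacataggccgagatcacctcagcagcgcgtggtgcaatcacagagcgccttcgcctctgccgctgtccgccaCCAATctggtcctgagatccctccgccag
Lss: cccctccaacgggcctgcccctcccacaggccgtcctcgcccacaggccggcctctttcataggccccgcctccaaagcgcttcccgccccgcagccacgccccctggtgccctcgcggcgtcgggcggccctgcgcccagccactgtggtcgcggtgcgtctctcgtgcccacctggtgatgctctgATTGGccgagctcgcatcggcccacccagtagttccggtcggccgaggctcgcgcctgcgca
Idi1 holds the box in reverse at 2 places, Cyp51 once as CCAAT and Lss once in reverse. Their log2 fold changes were -1.06 ± 0.28 (Idi1), -0.96 (Cyp51) and -0.84 (Lss). A match is a description of these letters only.

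Idi1 stood at 11.1, 12.1, 4.51, 12.2 and 12.2 CPM in HF/HS animals and 17.6, 19.9, 16.8, 30.8 and 23.7 CPM in controls. The groups were apart (-1.06 ± 0.28, adjusted p = 0.0074), and the level was also lower between diets at 20 weeks (-1.76 ± 0.28, adjusted p = 8e-06). Sqle, the squalene epoxidase, stood at 74.8, 69, 22.7, 102 and 72.8 CPM in HF/HS animals and 271, 124, 167, 187 and 115 CPM in controls (-1.34 ± 0.45, adjusted p = 0.033), likewise without overlap. Cyp51 stood at 86.9, 94.7, 36.2, 102 and 84.3 CPM in HF/HS animals and 172, 134, 132, 196 and 150.2 CPM in controls (-0.96 ± 0.23, adjusted p = 0.004), also with ranges apart. The list counted 17 lower members between diets at 20 weeks (10.7% over all genes) and 3 between control 60 and 20 weeks (13.4%). Sqle was no longer called without any 1 of animals 292, 301, 302, 422, 31 or 191 (adjusted p = 0.051 to 0.11) or without animals 31, 421 and 422 together (0.093). The list counted 10 lower members without animal 31, and with the clock component as a covariate edgeR called none of the 24 (11 at an unadjusted p under 0.05), with a median of -0.40. Without a covariate DESeq2 called 16 lower, limma voom 15 and the fit of the 10 libraries alone 8.

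**Figure D3:**
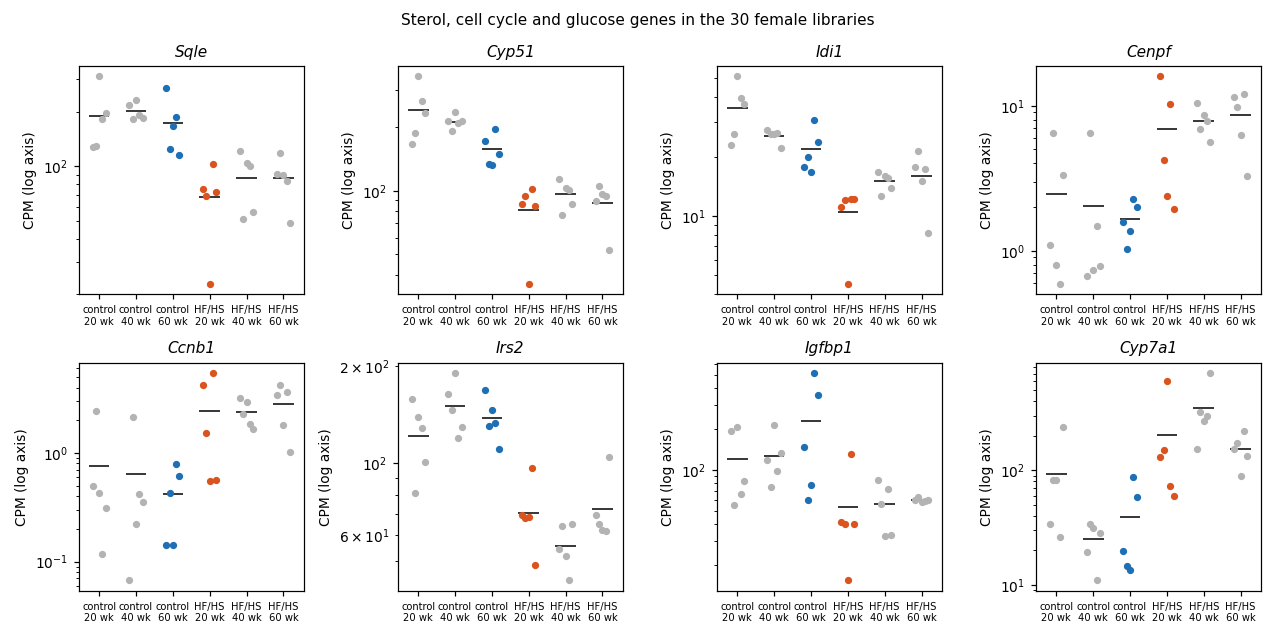
CPM on a log axis for sterol (Sqle, Cyp51, Idi1), cell cycle (Cenpf, Ccnb1), insulin-related (Irs2, Igfbp1) and bile acid (Cyp7a1) genes in the 30 female libraries, with group means as bars and colours as for the genes with large differences. Idi1 lies between 4.51 and 12.2 CPM in the HF/HS animals at 20 weeks and between 16.8 and 30.8 CPM in the controls at 60 weeks.

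Genes that turn cholesterol into bile acids or export sterols were higher where they were called: 4 of 23 tested members of the bile acid list rose and none fell (7.25% higher over all genes), with a list median of 0.01. Abcg5, one part of the transporter that moves cholesterol into bile, stood at 182, 172, 166, 162 and 179 CPM in HF/HS animals and 56.4, 96.2, 101, 82.6 and 111 CPM in controls. The groups were apart and the HF/HS values close together (0.95 ± 0.17, adjusted p = 0.00014). Abcc3, an exporter of bile acid conjugates into blood, stood at 416, 365, 563, 399.7 and 373 CPM in HF/HS animals and 70.8, 227, 155, 129 and 198 CPM in controls (1.44 ± 0.30, adjusted p = 0.00078), also apart. Cyp7a1, which starts the conversion of cholesterol to bile acids, ranged widely, at 131, 152, 601, 73.5 and 60 CPM in HF/HS animals and 19.6, 14.5, 13.5, 88.2 and 57.9 CPM in controls (2.40 ± 0.59, adjusted p = 0.0041), with overlap. Without HF/HS animal 302, the highest, its difference was 1.43 with adjusted p = 0.069, and with the clock covariate it did not pass (1.15, adjusted p = 0.24), nor in the fit of the 10 libraries alone (adjusted p = 0.078). The list counted 2 higher members with the clock covariate and in that fit, and limma voom called 4 higher and 2 lower.

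Of 19 genes of lipid droplets and fatty acid uptake 3 were higher and 1 lower, against 7.25% and 9.49% over all genes. Fitm1, which partitions triglyceride into droplets, stood at 15.2, 7.46, 11.7, 9.96 and 12 CPM in HF/HS animals and 0.788, 3.03, 5.38, 5.44 and 3.59 CPM in controls with ranges apart (1.62 ± 0.41, adjusted p = 0.0047), and differed both between diets at 20 weeks (3.04 ± 0.45) and between control durations (1.42 ± 0.51). Slc27a4, a fatty acid transport protein, was higher by a small step (0.35 ± 0.09, adjusted p = 0.0059) and was not called when animals 31, 421 and 422 were left out. Cd36, a fatty acid receptor, stood at 647, 487, 491, 509 and 524 CPM in HF/HS animals and 237, 345, 399.8, 479.9 and 385 CPM in controls without overlap but did not pass (0.53 ± 0.26, adjusted p = 0.16). Of 20 genes of fatty acid and triglyceride synthesis 2 were higher and 1 lower, near or below those shares, with a median of -0.14 that turned to 0.37 with the clock covariate. Scd2, a desaturase, stood at 21 to 100.3 CPM in HF/HS animals and 12 to 25.9 CPM in controls (1.54 ± 0.37, adjusted p = 0.0037), and Srebf1, the transcription factor of lipogenesis, at 569.9 to 728 CPM in HF/HS animals and 191 to 441 CPM in controls (0.90 ± 0.23, adjusted p = 0.0051). Scd1 at 14994 to 23334 CPM in HF/HS animals and 13907 to 18674 CPM in controls (0.30 ± 0.17, adjusted p = 0.23) and Fasn at 1595 to 5273 CPM in HF/HS animals and 2869.8 to 5484 CPM in controls (-0.05 ± 0.37, adjusted p = 0.95) did not pass. The call of Scd2 was lost with the animal number range as a covariate and in the fit of the 10 libraries alone, and that of Srebf1 without animals 31, 421 and 422.

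Fatty acid oxidation genes and other targets of PPAR alpha, the receptor that senses fatty acids, were called higher for 5 of 28 members and lower for none (7.25% higher over all genes), with a median of 0.32. Acaa1b, a peroxisomal thiolase, stood at 1374, 1130.0, 965, 1143 and 1051 CPM in HF/HS animals and 253, 710.0, 705, 443 and 609 CPM in controls (1.06 ± 0.29, adjusted p = 0.009), and Acadm, a mitochondrial acyl-CoA dehydrogenase, at 352 to 421 CPM in HF/HS animals and 179 to 337 CPM in controls (0.41 ± 0.12, adjusted p = 0.012). Both had animal 31 as the lowest control. Fgf21 (-0.15 ± 0.31, adjusted p = 0.78), a fasting hormone, and Cyp4a14 (0.34 ± 0.48, adjusted p = 0.67), a fatty acid hydroxylase, did not pass. Cyp4a14 was 1.01 without control animal 192, which stood at 34.4 CPM, and still did not pass. Without animal 31 the list counted 1 higher member, and Acadm did not pass (0.28, adjusted p = 0.077). With the clock covariate edgeR called none of the 28 (3 at an unadjusted p under 0.05), while without it DESeq2 called 6 higher, limma voom 4 higher and 1 lower, and the fit of the 10 libraries alone 2 higher. Without animals 31, 421 and 422 none was higher and 1 lower (5 in either direction at an unadjusted p under 0.05), and Acaa1b did not pass (adjusted p = 0.069). The receptor's direct repeat motif (DR1), searched as an exact match, was in none of the 19 promoters matched and in 0.037% of all genes with an entry. So rare a match was unlikely in 19 promoters of any genes, so its absence decides nothing about these.

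Called genes of glucose output and of amino acid breakdown were mostly lower. In the glucose list 5 of 19 members fell and 1 rose (9.49% and 7.25% over all genes), and in the amino acid and one-carbon list 10 of 20 fell and none rose. Irs2, which relays the insulin signal, stood at 69, 67.8, 68.1, 97.1 and 48.7 CPM in HF/HS animals and 169, 130.2, 147, 133 and 110.5 CPM in controls with ranges apart (-0.98 ± 0.19, adjusted p = 0.00035), and it was also lower between diets at 20 weeks (-0.80 ± 0.18, adjusted p = 0.0014). Pck1, the first enzyme specific to gluconeogenesis, stood at 913, 853, 809, 2142 and 1141 CPM in HF/HS animals and 1570.0, 1719, 2012, 2436 and 3191 CPM in controls (-0.90 ± 0.24, adjusted p = 0.0089), where HF/HS animal 421 overlapped the controls. Ppargc1a, a coactivator of gluconeogenesis, was lower as well (-0.84 ± 0.21, adjusted p = 0.0043). Igfbp1, a binding protein whose gene insulin represses, stood at 41.8, 40.3, 15.5, 130.4 and 40.3 CPM in HF/HS animals and 148, 60.2, 77, 514 and 351 CPM in controls (-2.10 ± 0.59, adjusted p = 0.011). It was -2.74 without HF/HS animal 421, the highest of its group, and -1.56 without control animal 191, where it did not pass (adjusted p = 0.063). Got1, the aspartate aminotransferase, stood at 196 to 462 CPM in HF/HS animals and 412 to 628 CPM in controls (-0.74 ± 0.18, adjusted p = 0.004). With the clock covariate 1 member of the glucose list and 3 of the amino acid list were lower, and Igfbp1 (adjusted p = 0.36), Pck1 (0.057), Ppargc1a (0.053) and Got1 (0.087) did not pass. The fit of the 10 libraries alone called 3 members of the glucose list and 1 of the amino acid list lower, and in it Igfbp1 (adjusted p = 0.085), Pck1 (0.086) and Got1 (0.058) did not pass.

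Genes of foreign compound metabolism were higher in 5 of 18 tested members and lower in none (7.25% higher over all genes), with a median of 0.47. Besides Cyp3a11 these included Cyp2c55, a P450 of the 2C family, at 9.01, 4.55, 2.26, 4.36 and 5.27 CPM in HF/HS animals and 0.788, 1.39, 1.29, 1.43 and 1.75 CPM in controls with ranges apart (1.92 ± 0.37, adjusted p = 0.00042), and Ces2a, a carboxylesterase, at 166, 169, 136, 150.5 and 139 CPM in HF/HS animals and 38.8, 115, 96.4, 76.9 and 95.5 CPM in controls (0.85 ± 0.22, adjusted p = 0.0067). Ces2a did not pass between diets at 20 weeks (0.09 ± 0.22, adjusted p = 0.82) and was lower in control females at 60 than at 20 weeks (-0.76 ± 0.22, adjusted p = 0.0087). Its call was lost with the clock covariate (adjusted p = 0.059) and without animals 31, 421 and 422. Without animal 31, the lowest control for Ces2a, the list counted 3 higher members, as it did in the fit of the 10 libraries alone. With the clock covariate, and without animals 31, 421 and 422, it counted 2, and limma voom called 4 higher and 1 lower.

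Genes that differ between the sexes in mouse liver were called mostly in opposite directions by class. Of 18 tested male-biased genes 4 were higher and 1 lower, with a median of 0.62 (7.25% and 9.49% over all genes). Of 18 female-biased genes 5 were lower and none higher, with a median of -0.41. Mup20, a male urinary protein, stood at 57.4, 62.4, 55, 43.7 and 65.2 CPM in HF/HS animals and 40, 13.6, 14, 10.9 and 14.1 CPM in controls with ranges apart (1.61 ± 0.32, adjusted p = 0.00053). Animal 31 was the highest control, and without it the difference was 2.11. Serpina1e, a male-biased protease inhibitor gene, was lower (-2.28 ± 0.57, adjusted p = 0.0046), but animal 31 held 734 CPM and without it the gene did not pass (-1.12, adjusted p = 0.16). Serpina1e was also not called with the animal number range as a covariate or in the fit of the 10 libraries alone. The lists counted 4 higher and none lower (male-biased) and 4 lower (female-biased) without animal 31. Of the female-biased list DESeq2 called 1 of 17 lower, limma voom 8 of 18, the clock covariate left 2 and the fit of the 10 libraries alone 3 of 17. The Mup and Serpina1 families hold near-identical copies, so these values are uncertain in how reads were split.

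Cell cycle genes were higher in 12 of 26 tested members and lower in none, against 7.25% higher over all genes, and the median log2 fold change was 1.06. The mean log2 CPM over its members was 2.75, 2.04, 1.26, 2.73 and 1.47 in the HF/HS animals and 0.82, 1.06, 0.81, 1.58 and 1.42 in the controls. HF/HS animals 292 and 421 were highest by this mean, and animals 302 and 422 lay within the range of the controls. The summed CPM of the list overlapped and had near-equal medians. It was 157 to 326 CPM (median 254) in HF/HS animals and 89.2 to 299 CPM (median 255) in controls. Cenpf, a kinetochore protein, stood at 16, 4.26, 2.38, 10.3 and 1.94 CPM in HF/HS animals and 1.58, 1.03, 1.36, 2.29 and 2.02 CPM in controls (2.06 ± 0.61, adjusted p = 0.016), and Ccnb1, the cyclin of mitotic entry, at 4.21, 1.52, 0.549, 5.45 and 0.564 CPM in HF/HS animals and 0.143, 0.424, 0.144, 0.787 and 0.613 CPM in controls (2.50 ± 0.71, adjusted p = 0.012). Bub1, a spindle checkpoint kinase, was low everywhere, at 0.233 to 1.52 CPM in HF/HS animals and 0 to 0.215 CPM in controls, with ranges apart (2.73 ± 0.64, adjusted p = 0.0028). Mki67, the proliferation marker, stood at 7.32 to 37.4 CPM in HF/HS animals and 4.97 to 12.7 CPM in controls and did not pass (1.20 ± 0.45, adjusted p = 0.059). It passed without animal 302 (1.41, adjusted p = 0.030), 422 (1.38, 0.040) or 191 (1.40, 0.046). Cenpf was lost without animal 292 (1.51, adjusted p = 0.10) and Ccnb1 without animal 421 (1.96, adjusted p = 0.057). The list counted 1 higher member of 23 tested in the fit of the 10 libraries alone (18 at an unadjusted p under 0.05), 6 of 26 without animal 31, 5 without animals 31, 421 and 422, and 14 with the clock covariate. DESeq2 called 16 and limma voom 9, without Cenpf (adjusted p = 0.095) and Ccnb1 (0.088). With the animal number range as a covariate the 3 called genes named here did not pass. That covariate cannot be separated from the groups in these 10 libraries.

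The matrix list counted 5 higher and 2 lower of 33 members, against 7.25% and 9.49% over all genes, with a median of 0.33. Col5a2, a fibrillar collagen chain, was lower, at 95.5, 98, 55.8, 87.3 and 39.5 CPM in HF/HS animals and 427, 249.5, 220.4, 245 and 188 CPM in controls, with ranges apart (-1.82 ± 0.26, adjusted p = 6.6e-06), and it was also lower between diets at 20 weeks (-1.56 ± 0.26, adjusted p = 2e-05). Mmp12, the macrophage elastase, was higher, at 6.99, 7.34, 13.8, 5.6 and 13.3 CPM in HF/HS animals and 0.931, 0.97, 1.36, 5.72 and 1.66 CPM in controls (2.16 ± 0.54, adjusted p = 0.0047). It rose both between diets at 20 weeks (4.25 ± 0.66) and between control durations (2.09 ± 0.80). Without control animal 191, whose 5.72 CPM overlapped the HF/HS animals, it was 2.97. Col1a1, the main fibrillar collagen chain, at 5.89 to 18.2 CPM in HF/HS animals and 4.48 to 7.02 CPM in controls (1.12 ± 0.45, adjusted p = 0.074), and Timp1, a metalloproteinase inhibitor, at 0.145 to 0.427 CPM in HF/HS animals and 0 to 0.358 CPM in controls (0.31 ± 0.68, adjusted p = 0.79), did not pass. Col1a1 was called at a like fold change by DESeq2 (adjusted p = 0.042), in the fit of the 10 libraries alone (0.034) and in that of the 30 females (0.021). The matrix list counted 2 higher and 2 lower without animal 31 and 7 higher with DESeq2, and Mmp12 was not called with the clock covariate (adjusted p = 0.058) or the animal number range.

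Immune cell markers were called in some lists and not in others, against 7.25% higher and 9.49% lower over all genes. None of 8 Kupffer cell, 14 monocyte and macrophage, 10 T and natural killer cell and 5 neutrophil markers was called in edgeR's test, 0 of them at an unadjusted p under 0.05, and none by DESeq2 or limma voom. Of 12 markers of lipid-associated macrophages, 1 was higher (Mmp12) and 2 lower, with a median of 0.43. Values of the lower ones are not given here, and without animal 31 the list counted 1 higher and none lower. Trem2 (0.38 ± 0.52, adjusted p = 0.66), Gpnmb (1.75 ± 0.68, adjusted p = 0.069) and Spp1 (0.49 ± 0.27, adjusted p = 0.22), which mark such cells in fatty liver, did not pass. Gpnmb was called by DESeq2 (adjusted p = 0.026), and in the fit of the 30 females both Gpnmb (0.027) and Spp1 (0.037) were called. Gpnmb stood at 1.09 to 4.94 CPM in HF/HS animals and 0.287 to 1.72 CPM in controls, while both component differences were positive, 4.37 ± 0.93 between diets at 20 weeks and 2.62 ± 1.18 between control durations. Of 8 B and plasma cell markers 2 were lower and none higher (9.49% lower over all genes), while the list's median was 0.57. Jchain, which joins polymeric antibodies, stood at 3.45, 5.42, 5.19, 6.11 and 8.97 CPM in HF/HS animals and 8.67, 14.9, 19.5, 19.3 and 23.1 CPM in controls (-1.54 ± 0.28, adjusted p = 0.00024), and Mzb1, a plasma cell chaperone, at 0.175 to 0.509 CPM in HF/HS animals and 0.606 to 1.29 CPM in controls (-1.65 ± 0.39, adjusted p = 0.003). Jchain was higher in control females at 60 than at 20 weeks (1.01 ± 0.28, adjusted p = 0.0047). Of 13 dendritic cell and MHC class II genes 1 was higher and 1 lower, with a median of 0.37. The lower one was Clec9a, a marker of cross-presenting dendritic cells, at 5.65 to 8.85 CPM in HF/HS animals and 8.06 to 19.7 CPM in controls (-0.92 ± 0.21, adjusted p = 0.0022) and 1.19 ± 0.21, adjusted p = 4e-05 between control durations. Of 18 chemokine and cytokine genes 3 were higher (7.25% over all genes). Cxcl10, an interferon-induced chemokine, stood at 7.91, 6.82, 10.2, 3.49 and 7.09 CPM in HF/HS animals and 1.07, 2.85, 2.22, 3.58 and 0.876 CPM in controls (1.72 ± 0.37, adjusted p = 0.0014), and Ccl2, which attracts monocytes, at 0.582 to 3.87 CPM in HF/HS animals and 0.35 to 1.5 CPM in controls (1.49 ± 0.45, adjusted p = 0.017). Ccl2 was lost without animal 292 (1.20, adjusted p = 0.080) with the clock covariate (adjusted p = 0.090), by limma voom (0.092) and in the fit of the 10 libraries alone (0.091).

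Acute phase genes, which liver secretes in inflammation, were lower in 10 of 22 members and higher in none (9.49% lower over all genes), with a median of -0.84. Saa1 stood at 53.4, 61.8, 216, 80.7 and 191 CPM in HF/HS animals and 2156, 141, 671, 58.7 and 66.6 CPM in controls (-2.36 ± 0.81, adjusted p = 0.039), and Itih3 at 483, 658, 646, 711 and 686 CPM in HF/HS animals and 3973, 1074, 1355, 1005 and 1043 CPM in controls (-1.41 ± 0.32, adjusted p = 0.0022). In both, animal 31 was the highest library. Without animal 31 edgeR called none of the 22 (3 at an unadjusted p under 0.05), the median was -0.25, and Saa1 (-0.96, adjusted p = 0.46) and Itih3 (-0.81, adjusted p = 0.063) did not pass. With all 10 libraries DESeq2 called 12 lower and limma voom, which weights libraries by quality, 3. The fit of the 10 libraries alone called 2 and the clock covariate left 1. Saa1 was also lost without animal 292, 301, 421 or 42 (adjusted p = 0.059 to 0.099), and it passed in neither of the last 2 fits nor in limma voom (0.15, 0.23 and 0.43). The Saa genes are near-identical, so their split is uncertain.

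Targets of p53 and genes of senescence were lower in 4 of 15 members and higher in 1, against 9.49% and 7.25% over all genes. Set side by side, control females at 60 against 20 weeks had 7 of the 15 higher and none lower (13.8% and 13.4% over all genes). Between diets at 20 weeks 1 was higher and none lower (9.53% and 10.7% over all genes). Cdkn2b, the p15 cell cycle inhibitor, stood at 0.0842, 0.233, 0.366, 0.218 and 0.815 CPM in HF/HS animals and 1.58, 1.58, 0.789, 0.93 and 0.613 CPM in controls (-1.63 ± 0.42, adjusted p = 0.006). Trp53inp1, a stress-induced p53 partner, was lower (-0.96 ± 0.24, adjusted p = 0.005), as was Sesn2, a stress sensor (-0.71 ± 0.18, adjusted p = 0.0047). Between control durations the same genes stood at 1.66 ± 0.42 (Cdkn2b), 0.89 ± 0.24 (Trp53inp1) and 0.69 ± 0.18 (Sesn2), and between diets at 20 weeks at 0.03 ± 0.47, -0.08 ± 0.24 and -0.02 ± 0.18. Cdkn1a, the p21 inhibitor, stood at 56.1, 39.2, 20.7, 231 and 101 CPM in HF/HS animals and 137, 172, 164, 199.8 and 274 CPM in controls and did not pass (-1.08 ± 0.46, adjusted p = 0.094), but without HF/HS animal 421, the highest of its group, it was -1.80 and passed (adjusted p = 0.0060). Gdf15, a stress hormone, did not pass (-0.66 ± 0.35, adjusted p = 0.19). Called by limma voom were both Cdkn1a (-1.59, adjusted p = 0.0055) and Gdf15 (-0.96, adjusted p = 0.028). Trp53inp1 (adjusted p = 0.10) and Sesn2 (0.13) were not called with the clock covariate. In the fit of the 10 libraries alone the list counted 1 lower member, and Cdkn2b and Trp53inp1 were not called. The clock covariate left 2 lower, and limma voom called 7.

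Genes of fetal liver and liver tumours were lower in 4 of 15 members and higher in 1, against 9.49% and 7.25% over all genes. The list's median was -0.37, and 0.06 without animal 31, where 3 were lower. Dlk1, a fetal membrane protein, stood at 0.0842, 0.0583, 0.061, 0 and 0.188 CPM in HF/HS animals and 0.358, 0.545, 0.502, 1 and 0.35 CPM in controls with ranges apart (-2.68 ± 0.74, adjusted p = 0.0096), and its difference between control durations was 4.14 ± 0.87. Sox4, a progenitor transcription factor, was higher, at 5.31 to 12 CPM in HF/HS animals and 2.08 to 4.42 CPM in controls (1.28 ± 0.33, adjusted p = 0.0058), with 1.21 ± 0.32 between diets at 20 weeks. Gpc3, a proteoglycan of liver tumours, was lower (-1.01 ± 0.28, adjusted p = 0.011) but not without animal 31 (-0.68, adjusted p = 0.11). Afp, the fetal albumin relative, stood at 0.305 to 0.627 CPM in HF/HS animals and 0.0606 to 0.93 CPM in controls and did not pass (0.12 ± 0.37, adjusted p = 0.86). Sox4 was not called with the clock covariate (adjusted p = 0.083) or by limma voom (0.073). Gpc3 was also not called by limma voom (0.054), with the animal number range (0.36) or in the fit of the 10 libraries alone (0.095).

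Hepatocyte markers were lower in 7 of 15 members and higher in 1 (9.49% and 7.25% over all genes), all by small steps except the rising one. Asgr1, a hepatocyte lectin, stood at 322, 382, 337, 346 and 333 CPM in HF/HS animals and 403, 428, 404, 465 and 418 CPM in controls (-0.30 ± 0.06, adjusted p = 0.0013), and Hnf4a fell by a similar step (-0.38 ± 0.10, adjusted p = 0.0082). Both were not called with the animal number range as a covariate. Cyp2f2, a P450 of periportal hepatocytes, rose, at 545, 587, 542, 719 and 519 CPM in HF/HS animals and 151, 338, 242, 198 and 358 CPM in controls with ranges apart (1.18 ± 0.24, adjusted p = 0.00054). Of 10 periportal genes 4 were lower and 1 higher, and of 11 pericentral genes none was called (0 at an unadjusted p under 0.05, none by DESeq2 or limma voom). Fth1, the ferritin heavy chain, was higher by a small but even step, at 812, 757, 732, 796 and 773 CPM in HF/HS animals and 629, 619, 649.5, 668 and 638 CPM in controls (0.27 ± 0.05, adjusted p = 0.00053). Of 10 iron metabolism genes 1 was higher and 2 were lower (7.25% and 9.49% over all genes), with a median of -0.20. Fabp2, an intestinal fatty acid binding protein and the only tested gene of the gut list, was higher (1.06 ± 0.24, adjusted p = 0.0023) but not called in the fit of the 10 libraries alone (adjusted p = 0.071), which left 3 hepatocyte markers and 1 periportal gene lower. None of 15 pancreas and 11 muscle genes was called by edgeR (11 and 1 at an unadjusted p under 0.05), DESeq2 or limma voom. The pancreas median was 3.82, and -3.59 without animals 31, 421 and 422.

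The circadian clock list had 5 of 20 members higher and 5 lower, against 7.25% and 9.49% over all genes. The clock genes given values in this paragraph are all among the higher ones. Dbp, an output factor of the clock, stood at 18.3, 22.1, 73.3, 2.33 and 27.3 CPM in HF/HS animals and 0.501, 1.39, 3.66, 0.787 and 1.58 CPM in controls (4.18 ± 0.80, adjusted p = 0.00035). HF/HS animal 421 lay within the range of the controls, and the other 4 HF/HS animals lay above all of them. Per3 stood at 21.2, 19.4, 54, 8.36 and 28.7 CPM in HF/HS animals and 8.17, 7.09, 11, 8.16 and 9.64 CPM in controls (1.59 ± 0.42, adjusted p = 0.0074) and Bhlhe41 at 6.23, 8.1, 13, 2.98 and 8.97 CPM in HF/HS animals and 2.08, 2.24, 4.02, 0.859 and 1.14 CPM in controls (1.92 ± 0.49, adjusted p = 0.0052), with animal 302 highest and animal 421 lowest in each. Nr1d1, the repressor REV-ERB alpha, stood at 137 to 206 CPM in HF/HS animals and 31.4 to 107 CPM in controls, with ranges apart (1.30 ± 0.33, adjusted p = 0.0049). Between diets at 20 weeks these genes stood at 0.79 ± 0.61 (Dbp), 0.48 ± 0.40 (Per3), 1.06 ± 0.45 (Bhlhe41) and 0.15 ± 0.32 (Nr1d1), and between control durations at -3.39 ± 0.80, -1.11 ± 0.42, -0.86 ± 0.50 and -1.16 ± 0.33. Dusp1, an immediate early phosphatase, stood at 37.1, 32.5, 22.7, 64.8 and 56.6 CPM in HF/HS animals and 81.2, 80.9, 125, 185 and 295 CPM in controls with ranges apart (-1.84 ± 0.34, adjusted p = 0.00024), and 5 of the 16 immediate early genes were lower and none higher (9.49% lower over all genes). Dusp1 was higher in control females at 60 than at 20 weeks (adjusted p = 0.00062). The labels state no time of day at collection, and its part in these results was not tested. A covariate was made from the clock list, its first component over all 60 libraries, and 1394 genes were then called in place of 2374. Because members of that list were called between these groups, the covariate can take up group difference of any origin. Without animal 302 Per3 did not pass (1.15, adjusted p = 0.056) and Dbp was 3.47. Dbp did not pass in limma voom (3.60, adjusted p = 0.051). With the clock covariate, which is made from these genes, Dbp was 1.07 (adjusted p = 0.020), and Bhlhe41 (0.28, adjusted p = 0.62) and Nr1d1 (0.45, adjusted p = 0.28) did not pass. Without animal 31 the clock list had 5 higher and 2 lower, and in the fit of the 10 libraries alone 4 higher and 1 lower. The immediate early list counted 2 lower without animal 31, 1 higher and 1 lower with the clock covariate, 2 lower with limma voom and 1 of 14 lower in the fit of the 10 libraries alone.

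**Figure D4:**
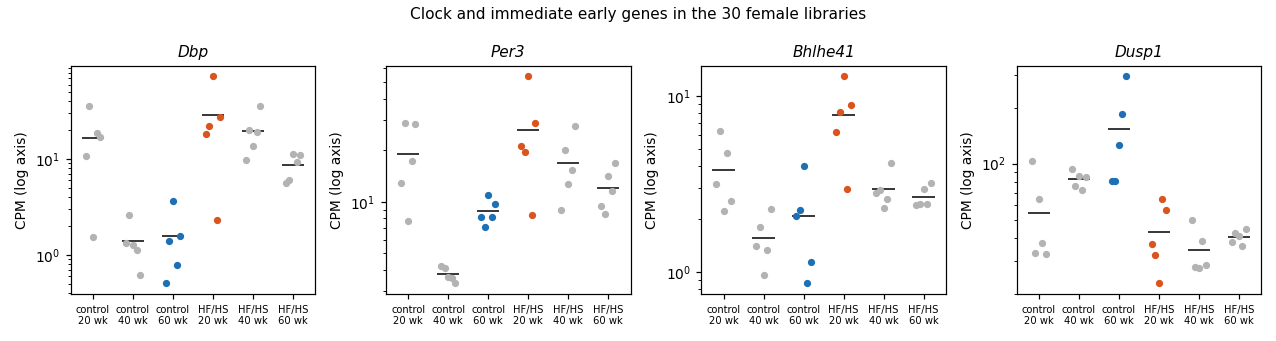
CPM on a log axis for 3 clock genes (Dbp, Per3, Bhlhe41) and the immediate early gene Dusp1 in the 30 female libraries, with group means as bars and colours as for the genes with large differences. Dbp lies at 2.33 to 73.3 CPM in the HF/HS animals at 20 weeks and at 0.50 to 3.66 CPM in the controls at 60 weeks. The 3 clock genes drawn were all called higher, and no clock gene called lower is drawn.

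Among the lists not yet named, most lay near the 7.25% higher and 9.49% lower over all genes. Of these, 2 of 20 interferon response genes were higher and 1 lower, and 3 of 11 NRF2 targets were higher. Of marker genes, 1 of 12 for bile duct was higher, and 1 of 12 endothelial and 1 of 12 stellate cell markers were lower. Of 20 oxidative phosphorylation genes 1 was higher. Of 17 genes of the unfolded protein response edgeR called none (4 at an unadjusted p under 0.05), DESeq2 2 lower and limma voom 1 lower. Without animal 31 the interferon and NRF2 lists had no called member in edgeR's test (5 and 3 at an unadjusted p under 0.05). Ribosomal protein genes were called often in both component differences and seldom here. Of 30 such genes 28 were lower between diets at 20 weeks (10.7% over all genes) and 24 between control 60 and 20 weeks (13.4%). Both were against the same control 20-week libraries. Here 2 of 30 were lower.

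Comparisons that share no library with these 10 were set beside it. Those of diets at 40 weeks and of control 40 against 20 weeks both use the female 40-week controls, with opposite sign. They are therefore not independent of each other. In HF/HS against control females at 40 weeks, 2127 genes were higher (15%) and 1890 lower (13.3%). Of the 1028 genes higher here 474 were also higher there, 46.1% of this list and 22.3% of that one, and 13 were lower. Of the 1346 genes lower here 578 were also lower there, 42.9% of this list and 30.6% of that one, and 17 were higher. In control females at 40 against 20 weeks, 282 genes were higher (1.99%) and 302 lower (2.13%). Of the genes higher here 50 were lower with longer control feeding (4.86% and 16.6% of the lists) and 8 were higher. Of the genes lower here 51 were higher there (3.79% and 18.1%) and 24 were lower. The 584 genes called in that comparison of durations became 0 in edgeR's test with the animal number range as a covariate (1161 at an unadjusted p under 0.05). All of those 40-week controls are in the high class of that range and all 20-week controls in the middle class. Within the libraries of that comparison class and duration cannot be separated. The fit took the class effect from other groups whose libraries fall in different classes. The 0 therefore rests on that effect being the same in all groups, which was not tested, and does not alone decide about duration. Without that covariate DESeq2 and limma voom called 868 and 1691. Cyp3a11 was 7.15 ± 0.59, adjusted p = 4.3e-13 between diets at 40 weeks and -0.37 ± 0.55, adjusted p = 0.77 between control 40 and 20 weeks. Noct was 0.22 ± 0.40, adjusted p = 0.72 and -0.10 ± 0.40, adjusted p = 0.92, while Dbp was 3.77 ± 0.81, adjusted p = 0.00032 and -3.54 ± 0.82, adjusted p = 0.0096. Cholesterol synthesis had 17 of 24 members lower between diets at 40 weeks, the cell cycle list 16 of 26 higher, and the matrix list 28 of 33 higher with 1 lower.

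**Figure D5:**
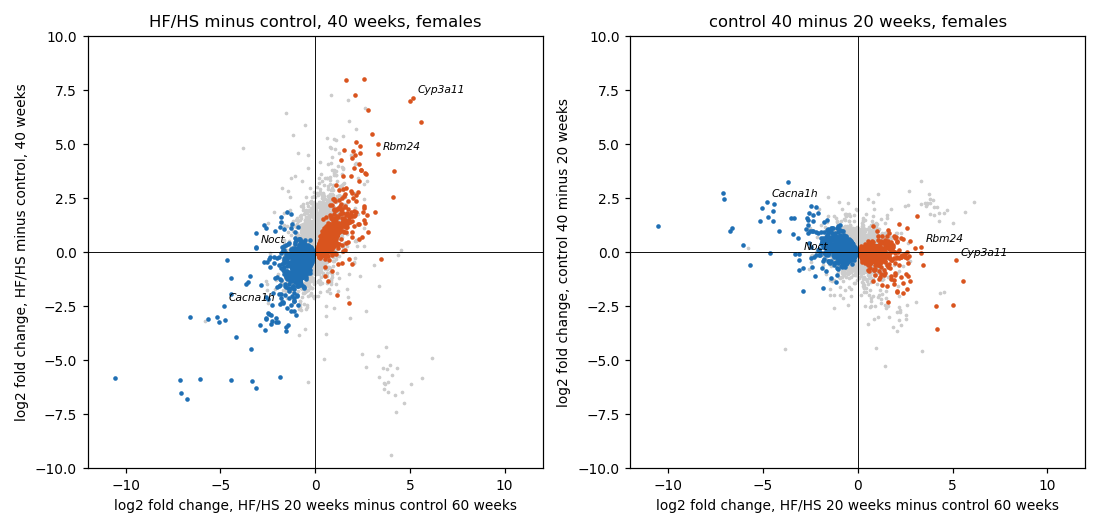
Log2 fold change of each of the 14180 genes in HF/HS 20 weeks minus control 60 weeks (horizontal) against HF/HS minus control at 40 weeks (vertical, left) and control 40 minus 20 weeks (vertical, right), all females, with genes called higher in orange and lower in blue. On the left 474 orange genes were also called higher and 578 blue genes also lower, and on the right 50 orange genes were called lower and 51 blue genes higher. Both vertical axes use the same 40-week control libraries, with opposite sign.

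In males the same contrast of HF/HS 20 weeks and control 60 weeks, again 10 libraries, called 3967 genes (28%). Of the genes higher in females 493 were higher in males (48% of the female and 26.6% of the male list) and 3 were lower. Of the genes lower in females 787 were lower in males (58.5% and 37.2%) and 7 were higher. The difference between the sexes was itself tested and passed for 44 genes (0.31%), 26 with the larger value in females and 18 with the larger in males. Cyp3a11 stood at 533 to 1159.9 CPM in HF/HS males and 163 to 958 CPM in control males (1.09 ± 0.44, adjusted p = 0.054), so the male controls were far above the female ones. The female difference was larger by 4.08 ± 0.66, adjusted p = 0.00042. Cyp4a12b did not pass in males (0.13 ± 0.30, adjusted p = 0.77) and the difference between the sexes was 3.97 ± 0.49, adjusted p = 6.4e-07. Megf11 fell in females and not in males, where it was 1.24 ± 0.60, adjusted p = 0.12, with a difference of -4.39 ± 0.78, adjusted p = 0.0016. Ugt2b37, a glucuronosyltransferase, stood at 20.9, 33.9, 18.1, 45.7 and 22.1 CPM in HF/HS animals and 43.9, 112, 119, 152 and 135 CPM in controls in females (adjusted p = 7.1e-05) and rose in males (1.95 ± 0.51, adjusted p = 0.0033), with a difference of -3.95 ± 0.60, adjusted p = 0.00011. The number of genes with a difference between the sexes ranged from 20 to 73 when single libraries were left out. Irs2 was lower in both sexes, -0.98 ± 0.19 in females and -1.16 ± 0.19 in males, and the difference did not pass (0.18 ± 0.26, adjusted p = 0.82).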

How the data were processed

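The deposited table holds counts per gene for 24982 entries in 60 liver libraries, with no normalization by the authors evident in its values. Reads were assigned to mm10, per the submitters' processing notes, and no aligner, counter or use of strand is given in the sources used here. Without knowledge of strand, overlapping and antisense genes cannot be told apart. The members, gene lists and tests were chosen with earlier results of these data known. Libraries were grouped by their labels. Each library's label opens with its own number, taken here as an animal number although the labels do not say so. The p-values set each difference against the spread between libraries within groups, estimated over all 60 libraries unless another fit is named. Genes were filtered with filterByExpr (minimum count 10, total 15), leaving 14180, and 12 group means were fitted over all 60 libraries (R 4.3.3, edgeR 4.0.16, TMM scaling, glmQLFit and glmQLFTest, Benjamini-Hochberg over all genes tested). Total counts ranged from 10923963 to 20942463, and chi-square per degree of freedom within the 2 groups was at least 10, so no library repeated another. Among 26 entries the symbol is a date, with 0.201% of counts.

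Named were the 8 highest and 8 lowest called genes with at least 1 CPM on average and ranges apart, up to 4 called members per list, a panel of 22 genes (1 of them not analysed here) and, for the sexes, 4 genes with the largest difference. Not all of these are printed, and some are not reported here. Cyp51 and Lss were added for their promoters after their values were seen. On simulated counts with 200 genes changed, the test called 175 genes, 7 of them unchanged, recovering 65.7% at 1.5-fold, 86.6% at 2-fold and 100% at 4-fold. The simulated libraries had a shared profile and a single spread per gene for all groups, with no library apart. These rates therefore need not hold for the real libraries. Alternatives used limma 3.58.1 and DESeq2 1.42.0, other scaling, filters, covariates and sets of libraries. Gene positions are from GENCODE by symbol (mm10) and promoters from RefSeq (GRCm38.p6). The counts give no length, so levels are not compared between genes.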

Additional observations from a re-analysis of the deposited data

Results flagged for a closer look

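In groups of 5, a library was marked where its gap to the nearest other library, relative to the group's range, was over Dixon's critical value, which chance gives in about 1 of 20 groups. Over the printed genes, 25 of 160 groups held such a library, and over the list means 11 of 86. Control animal 31 was apart in 9 genes. It was high for A2m (1939 CPM), Gldn (39.1 CPM), Itih3 (3973 CPM), Serpina1e (734 CPM), Col5a2 (427 CPM), Mup20 (40.04 CPM), Col1a1 (7.02 CPM) and Gpc3 (6.02 CPM), and low for Acadm (179 CPM). In mean log2 CPM of whole lists it was high for erythroid genes (4.37, the other controls 0.86 to 1.67), bile duct markers (0.77) and ribosomal proteins (6.69), and low for iron metabolism (5.05, the others 6.84 to 6.95), female-biased genes (6.67) and oxidative phosphorylation (6.80).

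HF/HS animal 302 was low for Idi1 (4.51 CPM), Cyp51 (36.2 CPM) and Fasn (1595 CPM), high for Cyp7a1 (601 CPM) and Abcc3 (563 CPM), and low in the list means of cholesterol synthesis (5.51, the others 6.33 to 6.66) and fatty acid synthesis (8.37, the others 9.24 to 9.52). HF/HS animal 421 was high for Noct (59.1 CPM), Igfbp1 (130.4 CPM), Pck1 (2142 CPM), Sesn2 (22.2 CPM) and A2m (0.44 CPM). Animal 292 was high for Cd36 (647 CPM) and low for Itih3 (483 CPM), and animal 422 high for Gpc3 (2.696 CPM). Among the other controls, animal 42 was high for Cidec (3.16 CPM) and low for stellate cell markers (mean log2 CPM 4.41), animal 191 high for Mmp12 (5.72 CPM), animal 192 high for Cyp4a14 (34.4 CPM) and hepatocyte markers (mean log2 CPM 10.97), and animal 32 high for pancreas genes (mean log2 CPM 0.025, the others -2.58 to -2.15).

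The contrast of HF/HS 20 weeks and control 60 weeks differed between females and males, by edgeR's test of the difference, for 6 printed genes. The female value exceeded the male value for Cyp3a11 (4.08 ± 0.66, adjusted p = 0.00042), Cyp4a12b (3.97 ± 0.49, adjusted p = 6.4e-07), Cyp2c55 (2.06 ± 0.49, adjusted p = 0.042) and Abcg5 (1.02 ± 0.23, adjusted p = 0.032), and was below it for Megf11 (-4.39 ± 0.78, adjusted p = 0.0016) and Ugt2b37 (-3.95 ± 0.60, adjusted p = 0.00011). Cyp2c55 was 1.92 ± 0.37 in females and -0.14 ± 0.32 in males, and Abcg5 0.95 ± 0.17 and -0.07 ± 0.16.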

How the results depend on the processing

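Of the 2374 genes called between HF/HS 20 weeks and control 60 weeks, the number stayed within 1.5 times under RLE size factors (2382), DESeq2 (2497), limma voom (2400), no filter (1962), removal of small non-coding genes (2322), the animal number range (2815) and the fit of females alone (2317). It was 1394 with the clock component as a covariate, 717 with only the 10 libraries, 929 at an adjusted p of 0.01, 1455 without animals 31, 421 and 422, and 1426 to 2475 leaving out single libraries. For the difference between the sexes (44) it was 111 with DESeq2, 12 with only its libraries, 11 at 0.01 and 20 to 73 leaving out single libraries. For diets at 40 weeks (4017) it was 6134 with limma voom, 2551 at 0.01 and 3518 to 4187. For control 40 minus 20 weeks (584) it was 1691 with limma voom, 0 with the animal number range (1161 at an unadjusted p under 0.05), 128 with the clock component, 206 with only its libraries, 102 at 0.01 and 272 to 780, the lowest without control 20-week animal 382. The 40-week and 20-week controls are in separate classes of the animal number range. That 0 rests on a class effect taken from other groups and assumed equal in all. It does not alone decide whether these controls differ. For diets at 20 weeks (2872) the number called was 1445 with only its libraries, 1592 at 0.01 and 2260 to 2837. For control 60 minus 20 weeks (3853) the values were 1933, 2190 and 3198 to 3896. Genes that did not pass changed sign for Timp1 (-0.21), Trem2 (-0.26) and Afp (-0.029) with the animal number range, Fasn (0.69) with the clock component and Cyp4a14 (-0.18) without animals 31, 421 and 422. Per3, which passed, was -0.31 with the clock component, which holds Per3 itself. Leaving out single libraries, Fasn ranged from -0.16 to 0.16, positive without animal 302 or 191, and Afp from -0.19 to 0.54, negative without animal 32 or 42. The cause of these shifts was not tested. No paired analysis was possible because the groups share no animal number. Genes near 1 CPM rest on few counts per library, which limits their precision.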
